A study of Mus musculus with 8 samples.

Results

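The genes described are 32 members of a list of immediate early and heat shock genes, taken by gene symbol from a table of 17068 mouse genes, in which 32 of 32 were found. Of these, 27 are immediate early genes or their feedback partners and 5 are heat shock genes. Their expression was read from RNA-seq libraries of osteoblastic cells (OBCs), which lay down bone matrix, sorted by FACS from long bones digested with collagenase IV. There were 4 libraries from leukemic mice, which had BCR-ABL+ B-ALL (a B-cell acute lymphoblastic leukemia), and 4 libraries from healthy mice. All mice were C57BL/6J females about 10 weeks old, and the cells were freshly isolated in both groups. The labels do not say how the leukemia was started, which surface markers gated the OBCs, or whether each library came from its own animal, so p-values measure only how far these samples spread, possibly for technical reasons. In bulk RNA, fewer cells of a type and less RNA per cell cannot be told apart.

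Immediate early genes are transcribed within minutes of a stimulus, from regulators already present in the cell, chiefly serum response factor and CREB acting below MAP kinases and cyclic AMP. Their products are mostly short-lived transcription factors and feedback proteins that shut the response down, and many of their mRNAs carry AU-rich elements that speed their decay. Heat shock genes are switched on by the factor Hsf1 when proteins misfold. Enzymatic digestion and sorting are known to induce genes of both kinds, and in bone several of them, among them AP-1 factors, also act in osteoblast differentiation. No library of undigested bone was analysed here, so induction by the isolation itself was not measured. What the table allows is a comparison of levels between genes and between libraries, in FPKM, fragments scaled to transcript length and library total.

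Sequences that bear on the control of these transcripts are shown for 4 genes upstream of the start site and for 4 genes in the 3′ untranslated region. Upstream windows of 250 bases came from RefSeq on GRCm38.p6 and were found for 27 of the 32 members. The Fos and Dusp1 windows represent the abundant immediate early members, and the Hspa1a and Hspa1b windows a pair of near-identical genes whose levels differ in the table. Capitals mark TGACG (the core of the cyclic AMP response element), TGACGTCA (its full form, which holds TGACG on both strands) and TATAAA in Fos and Dusp1. In Hspa1a and Hspa1b they mark GAANNTTC (part of a heat shock element) and CCAAT, read on either strand.
Fos, chr12:85473640-85473889, plus strand: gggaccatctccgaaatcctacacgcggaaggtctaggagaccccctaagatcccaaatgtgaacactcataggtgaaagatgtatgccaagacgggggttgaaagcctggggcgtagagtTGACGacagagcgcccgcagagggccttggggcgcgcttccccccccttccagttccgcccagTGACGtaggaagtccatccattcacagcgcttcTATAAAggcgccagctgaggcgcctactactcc
Dusp1, chr17:26508473-26508722, minus strand: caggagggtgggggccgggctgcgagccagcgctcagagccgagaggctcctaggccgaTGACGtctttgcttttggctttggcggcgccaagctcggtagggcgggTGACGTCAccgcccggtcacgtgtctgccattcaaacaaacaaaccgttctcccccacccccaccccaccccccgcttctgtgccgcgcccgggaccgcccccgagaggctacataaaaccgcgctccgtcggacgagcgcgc
Hspa1a, chr17:34972157-34972406, minus strand: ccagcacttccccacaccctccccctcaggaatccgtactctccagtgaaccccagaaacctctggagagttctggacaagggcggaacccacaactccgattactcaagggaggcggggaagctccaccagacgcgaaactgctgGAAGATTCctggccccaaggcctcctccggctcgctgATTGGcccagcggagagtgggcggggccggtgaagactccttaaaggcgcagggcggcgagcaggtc
Hspa1b, chr17:34959239-34959488, minus strand: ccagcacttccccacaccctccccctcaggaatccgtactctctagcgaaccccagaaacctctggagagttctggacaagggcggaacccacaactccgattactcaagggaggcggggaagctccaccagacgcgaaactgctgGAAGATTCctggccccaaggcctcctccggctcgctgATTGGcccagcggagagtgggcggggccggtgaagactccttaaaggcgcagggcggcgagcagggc

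The Hspa1a and Hspa1b windows were identical at 247 of 250 bases. The 3 differences, written with the Hspa1a base first, the position counted from 1 at the 5′ end of the window, and the Hspa1b base last, were C44T, T47C and T249G. TGACG was found on either strand in 14 of the 22 immediate early genes with a window (17 of their 28 windows), against 17.8% of all 32851 windows. The full TGACGTCA was found in Btg2, Dusp1 and Maff, and in 1.55% of all windows. The serum response element (CArG box) was found in windows of Egr2 and Zfp36, and in 1.47% of all windows. GAANNTTC was found in Hspa1a, Hspa1b and Hspb1 of the heat shock genes, in Jun and Fosl2 of the others, and in 6.69% of all windows. The reverse arrangement, TTCNNGAA, was found in Hsph1 and Egr2, and in 7.17% of all windows. All 5 heat shock genes had a window, so the members without a window were immediate early genes. TGANTCA, the AP-1 site, was found in 0 members' windows and in 6.75% of all. A match, or the lack of one, describes letters in this window only, and sequence further upstream was not searched.

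The 30-base stretches with the most ATTTA pentamers (capitals) in the 3′ untranslated regions of Fos, Dusp1, Zfp36 and Ier3 show AU-rich sequence of the kind that the protein encoded by Zfp36 binds. The Fos stretch as printed holds pentamers but not the full heptamer TATTTAT. The stretch taken in Junb held 1 pentamer and is not printed.
Fos, chr12:85477090-85477119, plus strand: aacgtttttattgtgttttcaATTTATTTA
Dusp1, chr17:26506167-26506196, minus strand: ggctcatgggagctggtccttATTTATTTA
Zfp36, chr7:28376963-28376992, minus strand: tgggccctttATTTAtgacgactttATTTA
Ier3, chr17:35822476-35822505, plus strand: ctccgtgtctaattaatATTTAtgtATTTA

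Over the longest GENCODE coding transcript of each gene, the heptamer TATTTAT stood in the 3′ untranslated region of 17 of the 27 immediate early members and of 1 of the 5 heat shock members (Hsph1), against 29.4% of the genes tested. Pentamers numbered 2.39 per kilobase of 3′ untranslated sequence in the immediate early members, 1.07 in the heat shock members and 1.83 over the genes tested. The members were compact genes. The immediate early members had a median of 3 exons and a gene span of 5021 bases, against 9 exons and 23630 bases over the genes tested. Jun, Junb, Jund, Ier2 and Ier5 had 1 exon, as did Hspa1a and Hspa1b. Single-exon genes made up 1.93% of the genes tested. Median transcript length was 2743 bases for the immediate early members and 3055 over the genes tested. These features were not tested.

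Summed FPKM ran from 456191 to 632055 in leukemic and from 477127 to 500933 in healthy libraries, and read depth is unknown, because the table holds no counts. The cells carried the markers of their label: 8 of 8 osteoblastic markers averaged at least 1 FPKM, with a sum of 44180 to 77620 FPKM in leukemic and 44470 to 89590 FPKM in healthy libraries. Of 7 endothelial markers, 7 averaged under 1 FPKM and Ptprb was listed at 0 throughout, with sums of 0.90 to 1.66 FPKM in leukemic and 0.86 to 1.89 FPKM in healthy libraries. Leukemic libraries 1 and 2 leaned towards short transcripts, and leukemic library 4 and healthy library 4 towards long ones: the deviation of genes from their mean had a Spearman rho with length, as a description across 11113 genes that are not independent replicates, of -0.35, -0.35, -0.11 and 0.33 in the 4 leukemic libraries in order. In the healthy ones rho was 0.04, 0.14, 0.12 and 0.35. Macrophage and monocyte markers (8 listed, 5 averaging under 1 FPKM, none at 0 throughout) summed to 117, 127, 78.4 and 44.9 FPKM in leukemic libraries 1 to 4, and to 48.9 to 56.1 FPKM in healthy libraries. Schwann cell markers (4 listed, 1 averaging under 1 FPKM, none at 0 throughout) summed to 39.2 to 59.8 FPKM in leukemic and 10.6 to 37.9 FPKM in healthy libraries, without overlap, and 2 of the 4 were higher in all 4 leukemic libraries. Erythroid markers (5 listed) summed to 321, 1443, 60.7 and 3.60 FPKM in leukemic libraries 1 to 4, and to 21.7 to 643 FPKM in healthy libraries. Osteoclast markers (4 listed) summed to 245 to 336.5 FPKM in leukemic and 208 to 305 FPKM in healthy libraries. Neutrophil markers (8 listed) summed to 13.6 to 69.3 FPKM in leukemic and 12.8 to 75.7 FPKM in healthy libraries. B-lineage markers (8 listed) summed to 18.4 to 51.5 FPKM in leukemic and 19.4 to 41.1 FPKM in healthy libraries. Sums of skeletal muscle, pan-leukocyte, and T and NK markers reached at most 9.4 FPKM in any library.

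The dominant fact about the members was their level in both groups. Of the 31 members that reached 1 FPKM in 4 or more libraries, 16 averaged at least 100 FPKM over the 8 libraries, a level reached by 6.3% of the 11214 genes that passed the same filter and were tested. Fos, which encodes the AP-1 subunit c-Fos (gene ID 14281, chromosome 12, 85473890 to 85477274), ranked from 12 to 21 among all 17068 genes over the 8 libraries, with 1 the most abundant. It had 3688, 2828, 3652 and 3893 FPKM in leukemic libraries 1 to 4, against 2611, 3500, 3081 and 4713 FPKM in healthy libraries 1 to 4. The leukemic values lay inside the range of the healthy ones, with means of 3515 ± 470 FPKM in leukemic and 3476 ± 901 FPKM in healthy libraries (SD, n = 4 each). Egr1, a zinc finger factor, ranked from 31 to 52, and Zfp36, an mRNA-destabilizing protein, from 44 to 126.

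**Figure D1:**
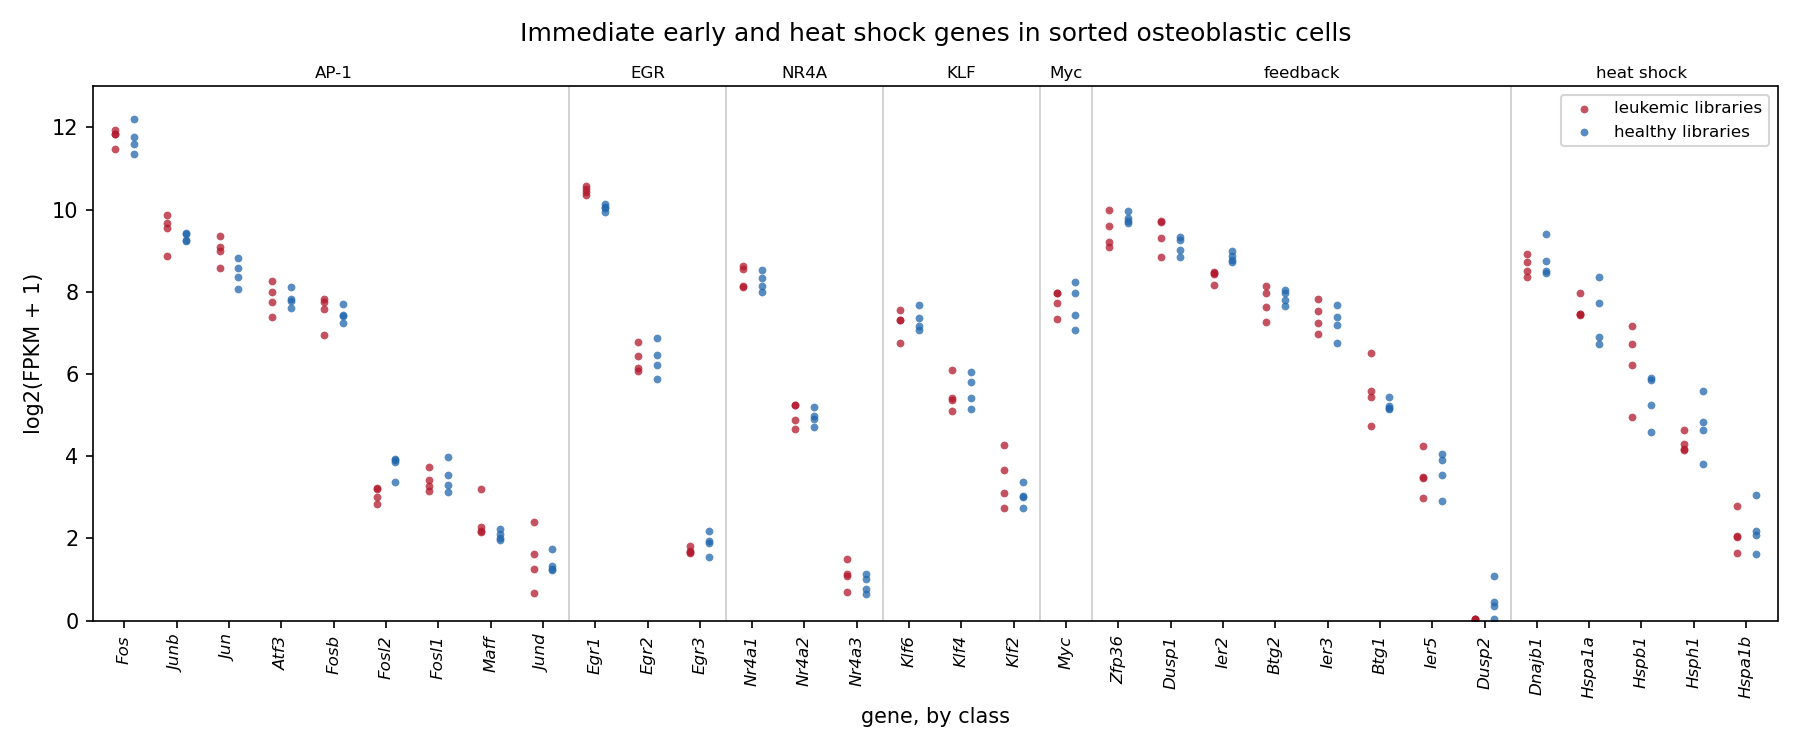
Each point is 1 library, given as log2(FPKM + 1) on the vertical axis, for the 32 genes grouped by class, with leukemic libraries in red on the left of each gene and healthy libraries in blue on the right. Fos stands highest at 2611 to 4713 FPKM, Egr1 is the gene whose 4 leukemic libraries all lie above the 4 healthy ones, and Dusp2 lies near the floor.

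Within families the levels were far apart, as FPKM, a scale already divided by transcript length. Fos had 12.6 to 31.3 times the FPKM of its paralogue Fosb over the 8 libraries, and Egr1 had 307 to 712 times that of Egr3. Junb, an AP-1 subunit, had 108 to 1552 times the FPKM of Jund, which lay at 0.60 to 4.31 FPKM. The transcript of Jund is 67.2% G and C, the highest share among the 32 members, and that of Junb is next at 62.6%. The part of base composition in these levels was not tested.

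The AP-1 members differed little between the groups as a class, with Jun and Fosl2 furthest apart in opposite directions. Jun (gene ID 16476, chromosome 4, 95049036 to 95052222), which encodes c-Jun, the partner of Fos proteins, had 542, 384, 506 and 660 FPKM in leukemic libraries 1 to 4, against 379, 268, 449 and 329 FPKM in healthy libraries 1 to 4. Only leukemic library 2 lay below the highest healthy library. The log2 difference, leukemic minus healthy on the log2(FPKM + 1) scale, was 0.55 (SE 0.23, limma adjusted p = 0.695). Fosl2 (gene ID 14284, chromosome 5, 32136472 to 32157840) encodes Fra-2, an AP-1 protein with a known role in mouse osteoblasts. It had 8.33, 6.99, 6.19 and 8.13 FPKM in leukemic libraries, against 9.43, 13.95, 14.18 and 13.58 FPKM in healthy libraries 1 to 4. All 4 leukemic values lay below all 4 healthy ones, with healthy library 1 nearest to them. Its log2 difference was -0.70 (SE 0.19, limma adjusted p = 0.587), the smallest p of the members in the main fit. The Fosl2 transcript is 6537 bases, the longest of the members. With the trend on length removed in each library the difference was -0.57 (limma unadjusted p = 0.013, against 0.00411 for Ier2). The part of transcript length in it was not tested beyond these values.

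The remaining AP-1 members overlapped between groups. Junb had 755, 464, 822 and 931 FPKM in leukemic libraries 1 to 4, against 687, 678, 613 and 605 FPKM in healthy libraries 1 to 4. Leukemic library 2 was the lowest of the 8 and the other 3 leukemic libraries were the highest, with a log2 difference of 0.16 (SE 0.23), which became 0.37 when leukemic library 2 was left out and 0.035 when leukemic library 4 was. Fosb had 192, 123, 213 and 228 FPKM in leukemic and 208, 171, 168 and 151 FPKM in healthy libraries. Atf3, a stress-induced factor that dimerizes with Jun proteins, had 256, 168, 214 and 308 FPKM in leukemic and 193, 226, 277 and 219 FPKM in healthy libraries. Both were lowest in leukemic library 2 and highest in leukemic library 4, with log2 differences of 0.09 (SE 0.22) for Fosb and 0.02 (SE 0.22) for Atf3. Fosl1, which encodes Fra-1, lay at 7.86 to 12.4 FPKM in leukemic and 7.82 to 14.9 FPKM in healthy libraries. The small Maf factor Maff had 8.19 FPKM in leukemic library 2 and 2.91 to 3.86 FPKM in the other 7 libraries. Jund had 2.1, 4.31, 1.4 and 0.6 FPKM in leukemic libraries 1 to 4, against 1.51, 2.34, 1.39 and 1.35 FPKM in healthy libraries, so both extremes were leukemic (log2 difference 0.11, SE 0.33).

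Egr1 was the member in which the leukemic libraries stood above the healthy ones without overlap. Egr1 (gene ID 13653, chromosome 18, 34861207 to 34864956) had 1531, 1379, 1317 and 1461 FPKM in leukemic libraries 1 to 4, against 1119, 1078, 1052 and 976 FPKM in healthy libraries 1 to 4. The lowest leukemic library exceeded the highest healthy one by a wider margin than the spread of the healthy group, with means of 1422 ± 93.7 FPKM in leukemic and 1056 ± 60.2 FPKM in healthy libraries (SD, n = 4 each). The log2 difference was 0.43 (SE 0.17, limma adjusted p = 0.695), and 0.46 in the authors' deposited table, for which no source used here gives a method. The Schwann cell marker sum separated the groups in the same direction, and its part in the Egr1 difference was not tested. The groups overlapped in both paralogues. Egr2, a factor of the same zinc finger family, lay at 66.6 to 108.7 FPKM in leukemic and 58.0 to 115.5 FPKM in healthy libraries (log2 difference 0.00, SE 0.24). Egr3 lay at 2.15 to 2.49 FPKM in leukemic and 1.94 to 3.51 FPKM in healthy libraries (-0.18, SE 0.19).

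The NR4A orphan nuclear receptors, which are themselves rapidly induced, kept a fixed order of level in both groups, with Nr4a1 above Nr4a2 above Nr4a3 in all 8 libraries. Nr4a1 had 280, 275, 395 and 373 FPKM in leukemic libraries 1 to 4, against 372, 254, 283 and 324 FPKM in healthy libraries 1 to 4. The groups overlapped widely, and the log2 difference was 0.10 (SE 0.20). Nr4a2 lay at 24.2 to 36.9 FPKM in leukemic and 25.2 to 35.4 FPKM in healthy libraries. Nr4a3 was near the detection filter, at 0.63 to 1.84 FPKM in leukemic and 0.56 to 1.2 FPKM in healthy libraries.

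Among the Krüppel-like factors, Klf6 was the most abundant, at 107 to 186 FPKM in leukemic and 133 to 202 FPKM in healthy libraries. Klf4, a factor also known for reprogramming, had 41.7, 67.8, 40.6 and 33.5 FPKM in leukemic libraries 1 to 4, against 41.8, 65.6, 34.6 and 54.7 FPKM in healthy libraries 1 to 4. Leukemic library 2 and healthy library 2 were the highest of their groups, and the log2 difference was -0.11 (SE 0.26). Klf2, best known from endothelial cells, had 11.6, 18.4, 7.62 and 5.65 FPKM in leukemic libraries 1 to 4 and 5.71 to 9.30 FPKM in healthy libraries. Leukemic libraries 1 and 2 were its highest, and the difference of 0.40 (SE 0.31) became 0.13 when leukemic library 2 was left out and 0.64 when leukemic library 4 was. The growth regulator Myc lay at 161 to 252 FPKM in leukemic and 133 to 302 FPKM in healthy libraries.

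The feedback and antiproliferative members were also abundant, apart from Btg1, Ier5 and Dusp2. Dusp1, a phosphatase that inactivates MAP kinases, had 462, 838, 637 and 834 FPKM in leukemic libraries 1 to 4, against 517, 609, 463 and 642 FPKM in healthy libraries 1 to 4. Leukemic libraries 2 and 4 were its highest and leukemic library 1 its lowest (log2 difference 0.28, SE 0.23). Zfp36 had 596, 543, 782 and 1022 FPKM in leukemic libraries 1 to 4, against 840, 884, 1003 and 822 FPKM in healthy libraries 1 to 4. Leukemic libraries 1, 2 and 3 lay below every healthy library and leukemic library 4 above every one, giving a log2 difference of -0.31 (SE 0.23) that does not describe the 4 leukemic libraries alike.

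Ier2 was lower in all 4 leukemic libraries than in all 4 healthy ones. Ier2 (gene ID 15936, chromosome 8, 84661331 to 84662852), a single-exon gene for a nuclear protein, had 358, 351, 343 and 288 FPKM in leukemic libraries, against 422, 506, 465 and 436 FPKM in healthy libraries. The means were 335 ± 31.9 FPKM in leukemic and 457 ± 37.0 FPKM in healthy libraries (SD, n = 4 each), with a log2 difference of -0.45 (SE 0.16, limma adjusted p = 0.695). Ier3, a stress-response protein, lay at 125 to 225 FPKM in leukemic and 106 to 203 FPKM in healthy libraries, and Ier5 at 6.96 to 18.1 FPKM in leukemic and 6.56 to 15.6 FPKM in healthy libraries.

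The antiproliferative gene Btg2 lay at 153 to 281 FPKM in leukemic and 201 to 262 FPKM in healthy libraries. Its paralogue Btg1 had 47.1, 90.2, 42.3 and 25.8 FPKM in leukemic libraries 1 to 4, against 34.3, 35.3, 42.7 and 36.0 FPKM in healthy libraries 1 to 4. The leukemic libraries spread on both sides of a narrow healthy group (log2 difference 0.32, SE 0.31), and leaving out leukemic library 2 gave 0.0098, leaving out leukemic library 4 gave 0.60. Dusp2, a MAP kinase phosphatase of immune cells, was below the filter and not tested. It was listed at 0.02, 0.03, 0.02 and 0 FPKM in leukemic libraries 1 to 4, against 0.27, 0.37, 1.12 and 0.03 FPKM in healthy libraries 1 to 4. The highest leukemic value equalled the lowest healthy one.

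**Figure D2:**
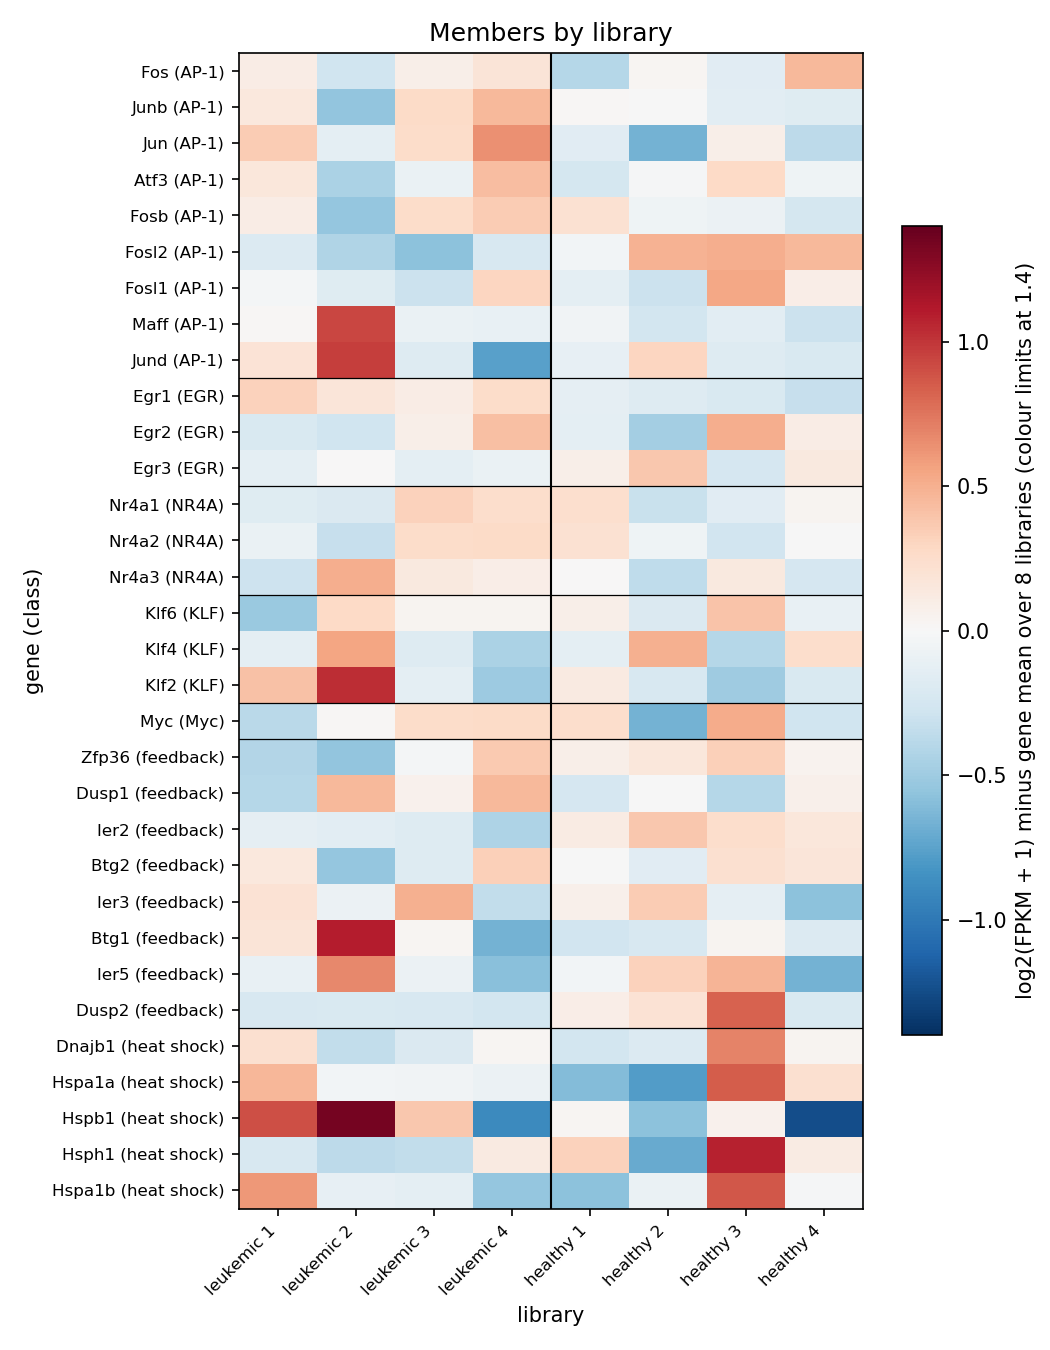
Colour gives each gene's log2(FPKM + 1) minus its mean over the 8 libraries, with leukemic libraries in the left columns and healthy libraries in the right columns, and rows grouped by class. Leukemic library 2 is high for Maff, Jund, Klf2, Btg1 and Hspb1 but low for Fosb, Junb, Atf3, Zfp36 and Btg2, and healthy library 3 is high for Hspa1a, Hspa1b, Hsph1 and Dnajb1.

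No member passed the threshold across all genes. By limma with Benjamini-Hochberg adjustment at 0.05, 0 of the 31 members tested and 0 of 11214 genes (0.0%) differed between leukemic and healthy libraries. At an unadjusted p under 0.05, 2 members were higher in leukemic libraries (Egr1 and Jun), against 2.49% of all genes, and 2 were lower (Fosl2 and Ier2), against 4.13% of all genes, which makes 4 members in both directions against 6.62% of genes. The higher count changed with the setting. On TPM 0 members were higher, against 1.52% of genes, and 2 lower, against 6.47%, and after quantile normalization 0 were higher, against 2.92%, and 2 lower, against 4.11%. Both Egr1 and Jun were also above 0.05 without leukemic library 1, without healthy library 2 and without healthy library 4. Jun alone was above it without leukemic library 3, leukemic library 4 or healthy library 1, and Egr1 alone with the replicate block and without leukemic libraries 1 and 2. Fosl2 was lower at this level in every alternative run, and Ier2 in all but the replicate block and the fit without healthy library 2. Some settings added members. Without leukemic library 4, Btg1, Egr1, Hspb1 and Klf2 were higher (4 members, against 11.1% of genes). In the same run Fosl2, Ier2 and Zfp36 were lower (3 members, against 4.54%). Hspb1 was also higher with array weights and with the replicate block, and Hsph1 was lower without healthy library 2. All 4 leukemic libraries lay above all 4 healthy ones in 1 member, against 0.954% of genes, and below them in 2, against 2.9% of genes. The median log2 difference was 0.06 over the 31 members and -0.02 over all genes tested, and 19 of 31 members had a positive difference, against 46.4% of genes. That tally depends on the scaling: 11 of 31 were positive on TPM, against 32.8% of genes, and 10 of 31 after quantile normalization, against 43.6%. Fos, Fosb, Atf3, Egr2, Nr4a1, Nr4a2 and Myc turned negative on both, Jund on TPM, and Hspa1a and Ier3 after quantile normalization. In 28 of 31 members the difference was under 0.5 in size, as in 85.1% of genes. With 4 libraries a group, the SE of the members' differences ran from 0.16 for Ier2 to 0.46 for Hspb1. Even Fosl2, at -0.70 with an SE of 0.19, did not pass (limma adjusted p = 0.587). The lowest limma adjusted p over all genes tested was 0.144, so differences well beyond 1 SE could go undetected.

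**Figure D3:**
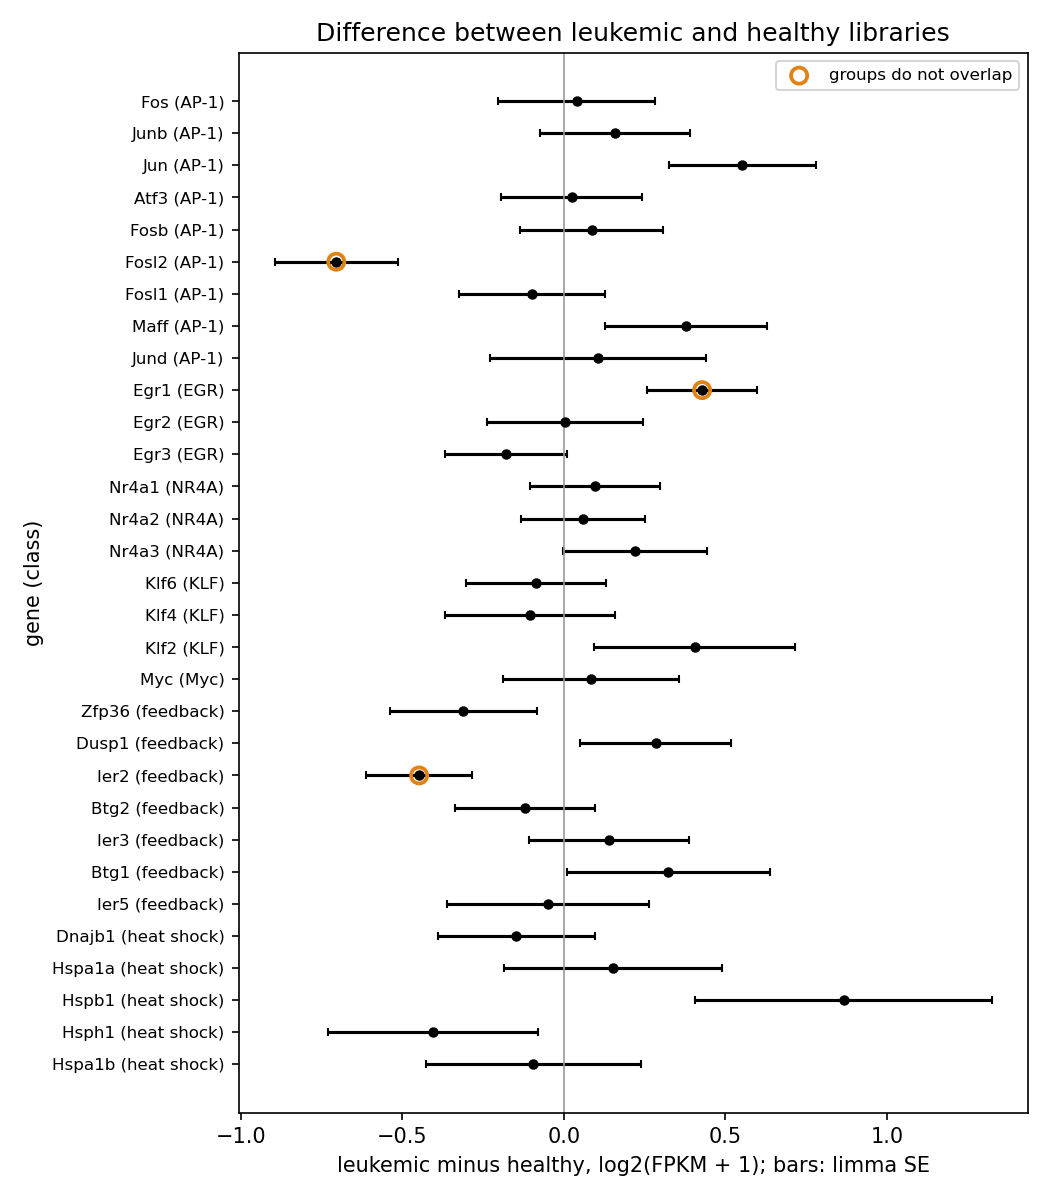
Points give the leukemic minus healthy difference in log2(FPKM + 1) for the 31 genes tested, with bars of 1 limma SE on each side, and circles mark genes whose groups do not overlap. Egr1 is circled at 0.43, and Fosl2 and Ier2 are circled at -0.70 and -0.45.

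Between libraries the 2 sets varied to different degrees. The range of log2(FPKM + 1) over the 8 libraries had a median of 0.92 over the immediate early members and 1.63 over the 5 heat shock members, which is 1.00 over the 31 members together, against 1.02 over all genes tested. Within the heat shock members the median range was 0.57 in the leukemic and 1.45 in the healthy group. Over the 31 members it was 0.80 within the leukemic and 0.60 within the healthy group, against 0.74 within the leukemic and 0.66 within the healthy group for all genes. The highest library had less than 2 times the FPKM of the lowest in 14 of 31 members, against 34.4% of genes. A spread of at least 4 times was found in 2 members, Hspb1 and Jund, against 21.7% of genes.

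The immediate early members went both ways within a library, so that means and medians over the set differ. Their mean deviation from each gene's 8-library mean over 26 genes, on the log2 scale, was -0.03 in leukemic library 1, 0.08 in leukemic library 2, 0.02 in leukemic library 3 and 0.03 in leukemic library 4. In healthy libraries it ran from -0.08 to 0.05. The median was -0.11 in leukemic library 2 and 0.21 in leukemic library 4, where 16 of 26 members stood above their mean, against 5395 of 11214 genes tested. Over all genes tested the median was 0.02 in leukemic library 2 and -0.02 in leukemic library 4. On TPM the members' median was -0.40 in leukemic library 2, against -0.24 over all genes, and 0.39 in leukemic library 4, against 0.14. Before that rescaling the mean deviations over all genes tested ran from -0.08 to 0.08. For the 5 heat shock members leukemic libraries ran from -0.27 to 0.40 (library 1 highest), and healthy libraries from -0.47 (library 2) to 0.71 (library 3). Single members reached their extremes in some libraries more often than in others. Leukemic library 2 held the highest value of 9 of the 31 members, against 20.8% of genes, and the lowest of 7, against 19.3%. Leukemic library 4 held the highest of 7, against 13.3%, including Jun, Junb, Fosb, Atf3 and Zfp36, and the lowest of 5, against 18.3%. Leukemic library 1 held the highest of 1, against 8.03%, and the lowest of 2, against 16.9%, and leukemic library 3 the highest of 2, against 8.41%, and the lowest of 1, against 6.3%. Among healthy libraries, library 3 held the highest value of 9 members, against 15.7% of genes, and the lowest of 1, against 13.8%. Library 2 held the highest of 2, against 14.8%, and the lowest of 8, against 10.3%, among them Jun, Myc, Egr2 and Hspa1a. Healthy library 1 held the highest of 0, against 7.98%, and the lowest of 2, against 3.01%, and healthy library 4 the highest of 1, against 11.0%, and the lowest of 5, against 12.1%. The part of transcript length and of other cell types in these differences was not tested.

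Healthy library 3 was highest of the 8 for 4 of the 5 members. The same library had the highest sum of osteoblastic markers, with 44180 to 77620 FPKM in leukemic libraries, against 89590 FPKM in healthy library 3 and 44470 to 56050 FPKM in the other 3 healthy libraries, and the part of this in the heat shock values was not tested. Dnajb1, the Hsp40 co-chaperone that delivers clients to Hsp70 (gene ID 81489, chromosome 8, 83608175 to 83612653), had 487, 327, 361 and 426 FPKM in leukemic libraries 1 to 4, against 349, 365, 675 and 428 FPKM in healthy libraries 1 to 4. Hsph1, the Hsp110 exchange factor of Hsp70, had 18.5, 16.8, 16.9 and 23.9 FPKM in leukemic libraries 1 to 4, against 27.5, 12.97, 47.1 and 23.8 FPKM in healthy libraries 1 to 4. Healthy library 3 stood above all others in both, and the groups overlapped, with log2 differences of -0.15 (SE 0.24) for Dnajb1 and -0.41 (SE 0.33) for Hsph1. Without healthy library 3 the Dnajb1 difference turned to 0.06 and the Hsph1 difference was -0.11, while without healthy library 2 the Hsph1 difference was -0.71.

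Hspa1a, the stress-inducible Hsp70 (gene ID 193740, chromosome 17, 34969359 to 34972156), had 252, 177, 176 and 172 FPKM in leukemic libraries 1 to 4, against 119, 106, 329 and 213 FPKM in healthy libraries 1 to 4. The healthy group held both the highest and the lowest values, while leukemic libraries 2, 3 and 4 lay between 172 and 177 FPKM. Hspa1b (gene ID 15511, chromosome 17, 34956429 to 34959238) had 5.93, 3.19, 3.12 and 2.13 FPKM in leukemic libraries, against 2.05, 3.25, 7.32 and 3.51 FPKM in healthy libraries. The log2 difference was 0.15 (SE 0.34) for Hspa1a and -0.09 (SE 0.33) for Hspa1b, and without healthy library 3 that of Hspa1a was 0.46. Both genes were highest in healthy library 3 and next highest in leukemic library 1. Their separate levels are uncertain: 63.8% of the 31-base subsequences of the Hspa1a transcript also occur in Hspa1b, and the promoter windows printed above differ at 3 bases, yet Hspa1a was listed with 32.5 to 80.7 times the FPKM of Hspa1b. The sum of both was 198 ± 40.1 FPKM in leukemic and 196 ± 105 FPKM in healthy libraries (SD, n = 4 each).

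Hspb1, the small heat shock protein Hsp27 (gene ID 15507, chromosome 5, 135887919 to 135889563), followed another pattern. It had 105, 144, 73.0 and 29.8 FPKM in leukemic libraries 1 to 4, against 57.0, 37.3, 58.5 and 23.1 FPKM in healthy libraries 1 to 4. Leukemic libraries 1, 2 and 3 lay above every healthy library and leukemic library 4 below 3 of them, with a log2 difference of 0.87 (SE 0.46, limma adjusted p = 0.695). Its transcript is 930 bases, the shortest of the members, and leukemic libraries 1 and 2, which leaned towards short transcripts, were its highest. With the trend on length removed in each library the difference was 0.31, and without leukemic libraries 1 and 2 it was 0.18. Leaving out leukemic library 2 gave 0.56, and leaving out leukemic library 4 gave 1.31. The part of transcript length in this difference was not tested beyond these values. The value is also uncertain because 56.7% of its 31-base subsequences occur in the pseudogene Hsp25-ps1, which was not analysed here.

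**Figure D4:**
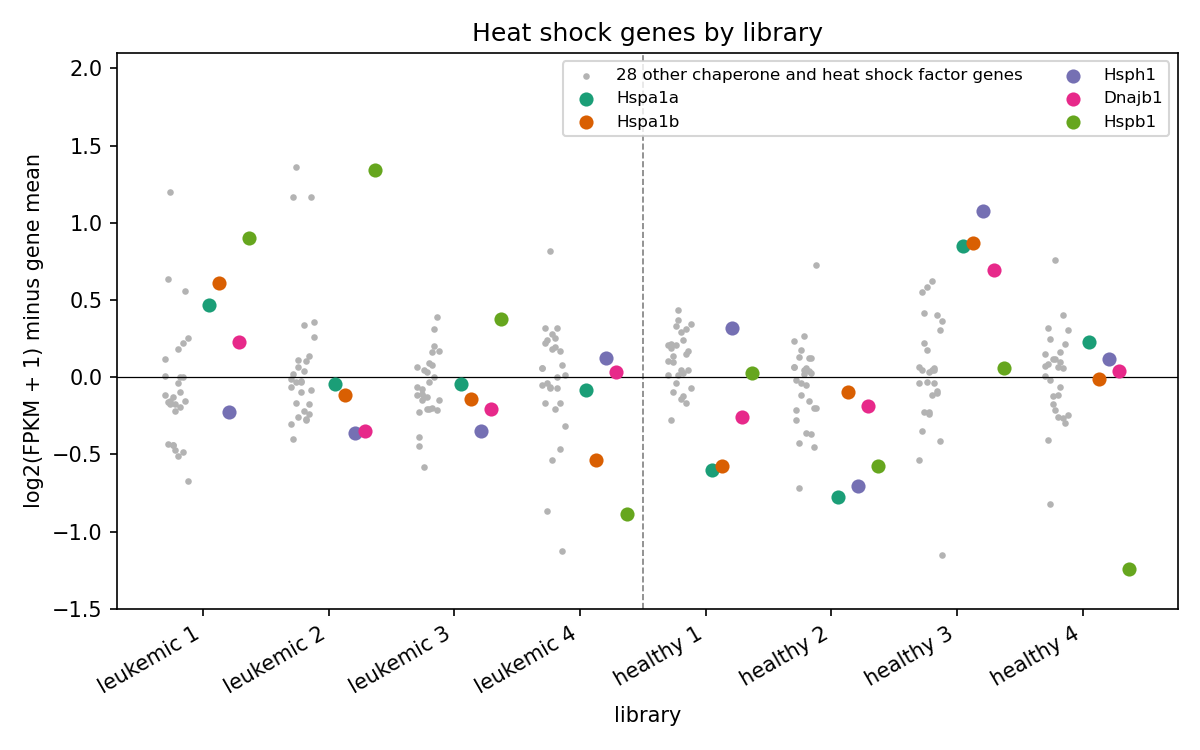
Points give log2(FPKM + 1) minus the gene's mean over 8 libraries, for the 5 heat shock members in colour and 28 other chaperone and heat shock factor genes in grey, by library. Hspa1a, Hspa1b, Hsph1 and Dnajb1 stand together at the top in healthy library 3, and Hspb1 is highest in leukemic libraries 1 and 2.

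Other genes of the same pathways were described from 3 lists. Of 28 other chaperones and heat shock factors tested, 0 passed in either direction by limma adjusted over all genes. Without adjustment 0 were higher, against 2.49% of all genes, and 0 lower, against 4.13%, at 0.05. In healthy library 3, 7 of the 28 had their highest value, against 15.7% of all genes, and in healthy library 4, 6 of the 28, against 11.0%. In healthy library 3 the lowest value was held by 3 of the 28 (Dnaja2, Hspb8 and Hspb6), against 13.8% of genes. The small heat shock protein gene Hspb8 had 18.6 to 36.5 FPKM in leukemic libraries, against 13.04 FPKM in healthy library 3 and 37.7 to 50.7 FPKM in the other 3 healthy libraries. Those highest in healthy library 3 included Hspa8, the constitutive Hsc70, with 1246 to 1663 FPKM in leukemic libraries, against 1880 FPKM in healthy library 3 and 1044 to 1505 FPKM in the other 3 healthy libraries. Dnaja1, another Hsp40, had 49.1 to 70.2 FPKM in leukemic libraries, against 101 FPKM in healthy library 3 and 61.5 to 65.3 FPKM in the other 3. Bag3, a co-chaperone, had 19.6 to 32.1 FPKM in leukemic libraries, against 36.5 FPKM in healthy library 3 and 24.3 to 29.9 FPKM in the other 3. The smallest p among higher genes belonged to Hsf2 (log2 difference 0.63, SE 0.32) and Hspe1 (0.81, SE 0.46), and among lower genes to Hspa4l (-0.50, SE 0.25) and Stip1 (-0.29, SE 0.15), each at an adjusted p of 0.695 in limma. All 4 leukemic libraries lay below all 4 healthy ones in 2 of the 28, against 2.9% of genes, and above them in 0, against 0.954%. Stip1, the adaptor between Hsp70 and Hsp90, lay at 49.4 to 56.4 FPKM in leukemic and 57.8 to 74.7 FPKM in healthy libraries. The other was Hsp90ab1, at 307 to 330 FPKM in leukemic and 335 to 357 FPKM in healthy libraries.

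Of 46 other stimulus-induced genes listed, 45 were in the table and 43 were tested. Of the 43, 0 passed in either direction by limma adjusted over all genes, and without adjustment 4 (Id1, Nfkbia, Dusp6 and Id3) were higher, against 2.49% of all genes, and 0 lower, against 4.13%, at 0.05. The smallest p-values belonged to Id1, a dominant-negative helix-loop-helix factor induced by BMP signals, and to Nfkbia, the NF-kB inhibitor. Id1 had 150, 146, 136 and 67.8 FPKM in leukemic libraries 1 to 4, against 76.1, 84.1, 38.8 and 53.0 FPKM in healthy libraries 1 to 4 (log2 difference 0.97, SE 0.31, limma adjusted p = 0.695). Nfkbia averaged 565 ± 188 FPKM in leukemic and 347 ± 67.5 FPKM in healthy libraries (SD, n = 4 each; log2 difference 0.65, SE 0.27, limma adjusted p = 0.695). In both genes leukemic library 4 overlapped the healthy group. On the lower side stood Tob1, an antiproliferative relative of the Btg proteins (-0.46, SE 0.21), and Dusp8, a phosphatase of stress-activated kinases (-0.38, SE 0.18). The list's median log2 difference was -0.01, against -0.02 over all genes.

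Of 18 listed genes that signal to the immediate early promoters, 16 were tested. Of the 16, 0 passed in either direction by limma adjusted over all genes, and without adjustment 0 were higher, against 2.49% of all genes, and 1 was lower, against 4.13%, at 0.05. The lower one was Mapk9, which encodes the kinase Jnk2, with 1.48, 4.69, 1.83 and 3.23 FPKM in leukemic libraries 1 to 4, against 4.90, 4.39, 4.99 and 4.02 FPKM in healthy libraries 1 to 4 (log2 difference -0.63, SE 0.27). Elk4, a partner of serum response factor, came next (-0.48, SE 0.25). On the higher side stood Egfr (0.32, SE 0.23) and the serum response factor coactivator Mrtfb (0.14, SE 0.21). The median of the list was -0.12, against -0.02 over all genes.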

How the data were processed

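RNA-seq of sorted osteoblastic cells was analysed in 4 leukemic and 4 healthy libraries, grouped by the labels. Per the labels' protocols, RNA with an integrity number above 6.5 was made into SMART-Seq v4 libraries, which do not mark strand. RSEM 1.2.8, HISAT2 2.0.4, Bowtie2 2.2.5, DESeq2 and GRCm38.p6 are listed, without roles, per the submitters' processing notes. The values are FPKM deposited by the authors with 2 decimals, together with the authors' own log2 ratio per gene. Low FPKM values showed no common step, so counts could not be recovered and depth, counting intervals and detection floors are unknown.

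Genes reaching 1 FPKM in 4 or more libraries were tested (11214, with 5854 not tested) on log2(FPKM + 1), a scale that understates changes of low genes, by limma 3.58.1 with an intensity trend (R 4.3.3). P-values were adjusted by Benjamini-Hochberg over all genes tested, with a threshold of 0.05. The fit was first run on simulated data, with shifts larger than any member's difference. That run cannot show how the fit handles differences of the members' size. The labels do not say whether replicate numbers pair the samples, so the main fit did not use them. Members and lists were chosen with earlier results of these data known. Named genes were index genes of each class, the 5 members with the smallest p and the 5 with the widest range over libraries, and in each list 2 genes per direction. Other members are given by range. The values of Maff, Klf2, Dusp2, Hspa8, Dnaja1, Bag3, Hspb8 and Hsp90ab1 by library were chosen after they were seen. Transcript features came from GENCODE M21 and promoter windows from RefSeq, both on GRCm38.p6. Shared sequence was counted as 31-base subsequences. Motifs were searched on both strands, except TATAAA on the sense strand. Alternatives were 22 settings: other pseudocounts, filters and scalings, array weights, removal of the length trend, a replicate block and libraries left out.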

Additional observations from a re-analysis of the deposited data

Results flagged for a closer look

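Of 64 sets of 4 libraries (each member in each group), 3 held 1 library far from the other 3 by Dixon's test at its 95% critical value. Chance gives about 1 in 20 such sets. Maff had 8.19 FPKM in leukemic library 2, above the other leukemic libraries. Hspa1a had 251.86 FPKM in leukemic library 1, above the other leukemic libraries. Fosl2 had 9.43 FPKM in healthy library 1, below the other healthy libraries and nearest to the leukemic ones.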

How the results depend on the processing

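No member passed an adjusted p of 0.05 under any of the 22 alternatives. Among all genes the count, 0 by limma, was 1 with no filter on low values, 2 on TPM, 3 after quantile normalization, 6 with array weights, 3 with the length trend removed and 1 with the length trend removed and the replicate block. It was 0 to 2 with single libraries left out, 2 without leukemic library 4. The replicate numbers gave 0 genes when used as a block. Deviations of same-numbered libraries from their group means had correlations of 0.12, -0.05, -0.07 and 0.22. These cannot decide whether the samples were paired, which the labels do not say. Fosl2, Jun, Junb, Egr1, Dusp1, Ier2, Hsph1 and Hspb1 had the same direction in 22 of 22 alternatives. Unadjusted p under 0.05 was reached by 279 genes higher and 463 lower, by 171 and 725 on TPM, 633 and 405 with the replicate block, 680 and 864 with array weights, and 1228 and 503 without leukemic library 4. The adjusted p over the alternatives ran from 0.1 to 0.859 for Fosl2, from 0.316 to 0.908 for Egr1, from 0.283 to 0.908 for Ier2 and from 0.0901 to 0.987 for Hspb1.

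Small differences changed sign. On TPM the differences were -0.094 for Fos, -0.047 for Fosb, -0.023 for Jund, -0.11 for Atf3 and -0.037 for Nr4a1, where the median of all genes moved to -0.15. After quantile normalization they were -0.13 for Fos, -0.075 for Fosb, -0.15 for Atf3, -0.068 for Nr4a1 and -0.040 for Hspa1a. With array weights they were -0.037 for Jund and 0.031 for Hspa1b. Without leukemic libraries 1 and 2 they were -0.42 for Jund, 0.0148 for Zfp36 and -0.16 for Btg1. With single libraries left out, the ranges were -0.086 to 0.20 for Fos, -0.016 to 0.28 for Fosb, -0.20 to 0.38 for Jund, 0.035 to 0.37 for Junb, 0.0098 to 0.60 for Btg1, -0.71 to -0.11 for Hsph1, 0.56 to 1.31 for Hspb1, -0.11 to 0.18 for Atf3, -0.31 to 0.044 for Klf4, -0.083 to 0.46 for Hspa1a, -0.31 to 0.18 for Hspa1b and -0.26 to 0.061 for Dnajb1.

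The mean deviation of the immediate early members moved with scaling. In leukemic library 1 it was -0.16 on TPM, -0.12 after quantile normalization, 0.032 with median-of-ratios scaling and 0.021 with the length trend removed. In leukemic library 2 it was -0.19 and -0.13, and in leukemic library 4 it was 0.19 and 0.16, on TPM and after quantile normalization. On TPM the mean over all genes tested was itself -0.12 in leukemic library 1, -0.19 in leukemic library 2 and 0.08 in leukemic library 4. After quantile normalization the all-gene mean was -0.00093, -0.0088 and 0.0022 in these libraries. For the immediate early members the mean in healthy library 1 was -0.094 with median-of-ratios scaling and -0.086 with the length trend removed. It was 0.0148 in healthy library 2 on TPM and 0.13 in healthy library 3 after quantile normalization. In healthy library 4 it was 0.025 on TPM and 0.032 after quantile normalization. The all-gene mean on TPM was 0.047 in healthy library 2 and 0.021 in healthy library 4. The heat shock mean in leukemic library 2 was -0.19 on TPM, as was the all-gene mean. The causes were not tested.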
